A study of Mus musculus with 27 samples.

Results

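Replication-dependent histone genes are described here in the mouse liver, as the 11 rows of the expression table whose gene name begins with Hist1h, Hist2h, Hist3h or Hist4h and whose value was 10 or more in at least 3 of the 27 libraries. The table holds 71 rows with such a name among 45706, and 15932 genes of the whole table passed the same floor. The 11 genes were the linker histone genes Hist1h1c, Hist1h1d and Hist1h1e, the H2A gene Hist3h2a, the H2B genes Hist1h2bc, Hist1h2be and Hist2h2be, the H3 gene Hist2h3c2 and the H4 genes Hist1h4h, Hist1h4i and Hist2h4. The series compared livers after a meal with livers of mice that could sense food without eating it. All mice were wild type (WT), of the strain written C57/BLN6, and all had been fasted for 16 h; age and sex are not given in the sources used here. The fasted group had the fast alone. Refeeding followed it in 4 groups, for 30, 60, 120 or 240 min, and in 4 more the mice had caged food, enclosed so that it could not be eaten, for those times. Each of the 9 groups had 3 libraries, described as biological replicates.

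Values are read counts per gene that the authors divided by a scaling factor per library, called normalised read counts below. They summed to 40654573 to 50037562 per library, and the spacing of low values placed the depth at 25.5 M to 52.5 M reads, with 1 read worth 0.775 to 1.69 normalised read counts. Values below about 10 therefore rest on few reads. All 8 hepatocyte markers examined were above 0 in every group, and their sum was 4207137 to 4873296 in the fasted livers. For 2 libraries at 240 min the labels disagree: refed 240 min replicate 3 has caged food as its treatment label, and caged food 240 min replicate 1 has refed. Libraries were grouped by title, and the calls at 240 min are also given without these 2 libraries and with the groups of the treatment label. An earlier analysis of these data found 4 libraries to stand apart (replicate 1 at 30 min of refeeding and, with caged food, replicate 1 at 30 min, replicate 2 at 60 min and replicate 3 at 120 min), and calls that ended without them are named. The fasted livers were not matched in time to the refed or caged food ones. In comparisons with them, food eaten or sensed and time after the fast cannot be told apart.

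Nucleosomes are built from the core histones H2A, H2B, H3 and H4, and the linker histone H1 binds the DNA between them. The replication-dependent genes for these proteins lie mostly in clusters, lack introns and are transcribed in bulk when DNA is copied; their mRNAs usually end just behind a conserved stem-loop that binds SLBP, in place of a poly(A) tail. In cells that no longer divide, as most hepatocytes of the adult liver, some of these genes give transcripts that run past the stem-loop and carry a tail. The libraries were made from mRNA with a kit that selects poly(A) tails, so the values stand for tailed transcripts and a transcript ending at the stem-loop is largely not captured.

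The stretch around the stem-loop shows which of the members keep this 3′ signal in their annotated transcript, so 7 members are printed, 5′ to 3′ on the strand of the gene. Capitals mark the complete stem-loop, a 6-base stem around a 4-base loop. In Hist2h2be they mark the longest run shared with it, and Hist1h2bc has none.
Hist1h1c: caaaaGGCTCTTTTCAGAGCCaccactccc
Hist1h2bc: tcctgccaagaggagcagacctgacatcgt
Hist2h2be: ttaaagtCTCTTTTagtgagtcacccgctc
Hist3h2a: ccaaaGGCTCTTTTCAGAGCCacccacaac
Hist2h3c2: acaaaGGCTCTTTTCAGAGCCaccacagct
Hist1h4i: ttaaaGGCCCTTTTTAGGGCCaccacaaaa
Hist1h4h: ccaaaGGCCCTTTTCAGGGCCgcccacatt
These come from the GENCODE M21 transcripts of GRCm38. Hist1h1c lies at chr13:23739507-23739536 (+), Hist2h2be at chr3:96221588-96221617 (+), Hist3h2a at chr11:58955167-58955196 (+), Hist2h3c2 at chr3:96238476-96238505 (-), Hist1h4i at chr13:22040957-22040986 (-) and Hist1h4h at chr13:23531453-23531482 (+). The Hist1h2bc stretch spans a splice junction, from the end of exon 1 at position 23684621 to the start of exon 2 at position 23692176 of chromosome 13 (+). In the H4 genes the bases of the stem differ from those of the H1, H2A and H3 genes and pair with each other in the same way.

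A complete stem-loop was found within 100 bases of the stop codon in 9 of the 11 members, all but Hist1h2bc and Hist2h2be. In 8 of those 9 the annotated transcript ran on for 100 bases or more behind it, with a median of 1153 bases and a range of 46 to 4884, and 7 of the 9 had a poly(A) signal behind it. Hist2h3c2 and Hist1h1e had no such signal in the annotated transcript. The annotated transcripts of Hist1h2bc and Hist2h2be, without a stem-loop, hold 1 and 3 poly(A) signals. The exception in length was Hist1h4h, with 46 bases behind the stem-loop. Of the 60 rows of the name pattern below the floor, 54 had a coding transcript in the annotation; a stem-loop was found in 32, and 13 of these ran on for 100 bases or more, with a median of 46.5. The annotated stretch from the stop codon to the transcript end was 300 bases or longer in 10 of the 11 members and in 11 of the 54 other genes (medians 1209 and 79.0 bases). Annotated ends are not measured ones, and 15 of the 22 other genes without a stem-loop had a transcript model that ended too soon after the stop codon to hold one. For each gene the transcript with the longest stretch after the stop codon was taken. The floor was set on values not divided by length, so a longer transcript passes it more easily. The difference in length between members and other genes is therefore not independent of the selection and describes the members only.

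**Figure D1:**
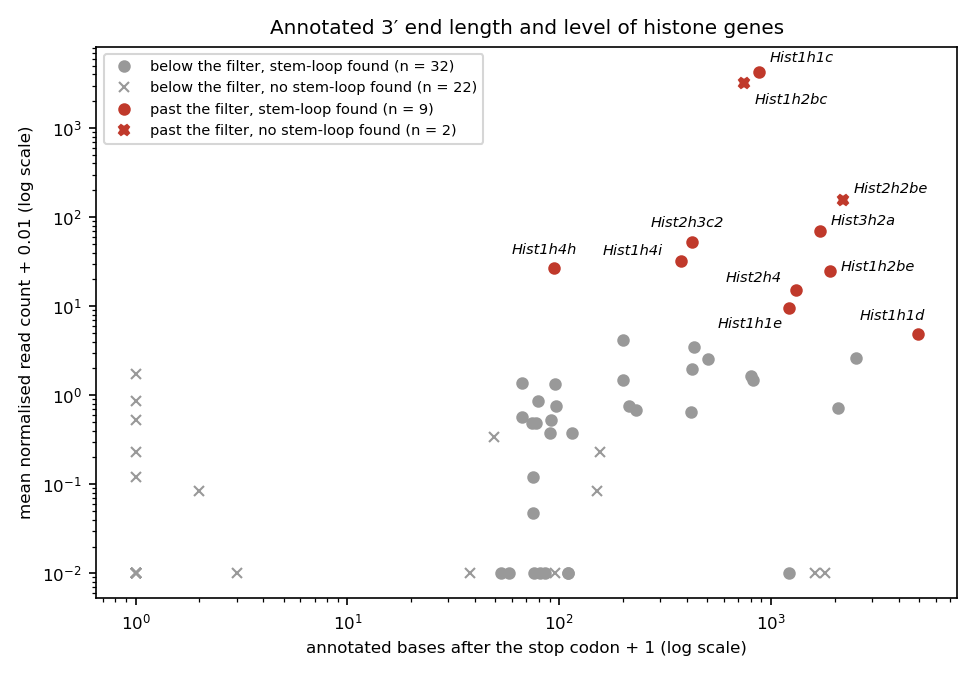
Annotated bases from the stop codon to the transcript end, plus 1 (x axis, log scale), against the mean normalised read count over 27 libraries, plus 0.01 (y axis, log scale), for 65 histone genes. Red marks are the 11 members and grey marks the 54 other genes, and crosses are genes with no stem-loop found. Hist1h4h, with 93 bases, is the only member below 300. The floor that defines members is on values not divided by length, which favours longer transcripts.

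Levels were compared between genes as the mean normalised read count per kb of annotated exon. Hist1h2bc and Hist1h1c, at 2775 and 2727 per kb, were close to each other and far above the others. Hist2h2be (59.9 per kb), Hist1h4h (56.7), Hist2h3c2 (52.0), Hist1h4i (43.8) and Hist3h2a (32.4) followed over all 27 libraries, and their libraries overlapped. The order of these 5 depended on the group: in the fasted livers it was Hist1h4h (60.3 per kb), Hist2h2be (44.9), Hist1h4i (24.8), Hist3h2a (23.5) and, lowest, Hist2h3c2. At 240 min of refeeding it was Hist2h3c2 (129 per kb), Hist2h2be (70.6), Hist1h4i (55.0), Hist1h4h (39.0) and Hist3h2a (32.3). Hist2h4 (9.29 per kb), Hist1h2be (5.65), Hist1h1e (4.99) and Hist1h1d (0.649) were lowest. For Hist1h2be the exons of 3 transcripts were joined to 4446 bases, and the transcript searched for a stem-loop has 2506. Its order beside Hist2h4 depends on which length is used. By class, 3 of 6 rows for H1 were members, 1 of 20 for H2A, 3 of 20 for H2B, 1 of 12 for H3 and 3 of 13 for H4. Of the 60 rows below the floor, 23 were at 0 in every library and 36 had a highest value of 1 to 9. The remaining one, Hist1h2bg, lies just outside the floor with a single library at 11. Just inside lies Hist1h1d, which reached 10 in 3 libraries, all refed; the other 10 members also pass when the 12 refed libraries are left out. Since Hist1h1d passed only through refed livers, its rise there is part of its selection.

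Several members stood above their fasted level after refeeding, and the H3 gene Hist2h3c2 had the largest log2 fold change of those called at 120 and 240 min. With limma and Benjamini-Hochberg adjustment over all genes tested, 2 of the 11 members rose at 30 min of refeeding, 5 at 60 min, 5 at 120 min and 5 at 240 min, and 0 fell at any time. The shares of all genes that rose were 1.31%, 7.26%, 7.95% and 12.9%, and the shares that fell were 0.326%, 3.75%, 6.13% and 11.4%. The median log2 fold change of the members was 1.39, 0.92, 0.96 and 0.66 at the 4 times, and that of all genes lay between -0.02 and 0.00. Libraries of the refed and fasted groups did not overlap, with refed higher, for 7, 6, 9 and 5 members, beside 11.7%, 15.1%, 18.2% and 22.2% of all genes. Hist1h1d is counted among the 7 and the 9, and as it passed the floor through refed libraries these counts and medians describe the members and support nothing. A change in these bulk samples cannot tell more cells of a type from more RNA per cell.

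**Figure D2:**
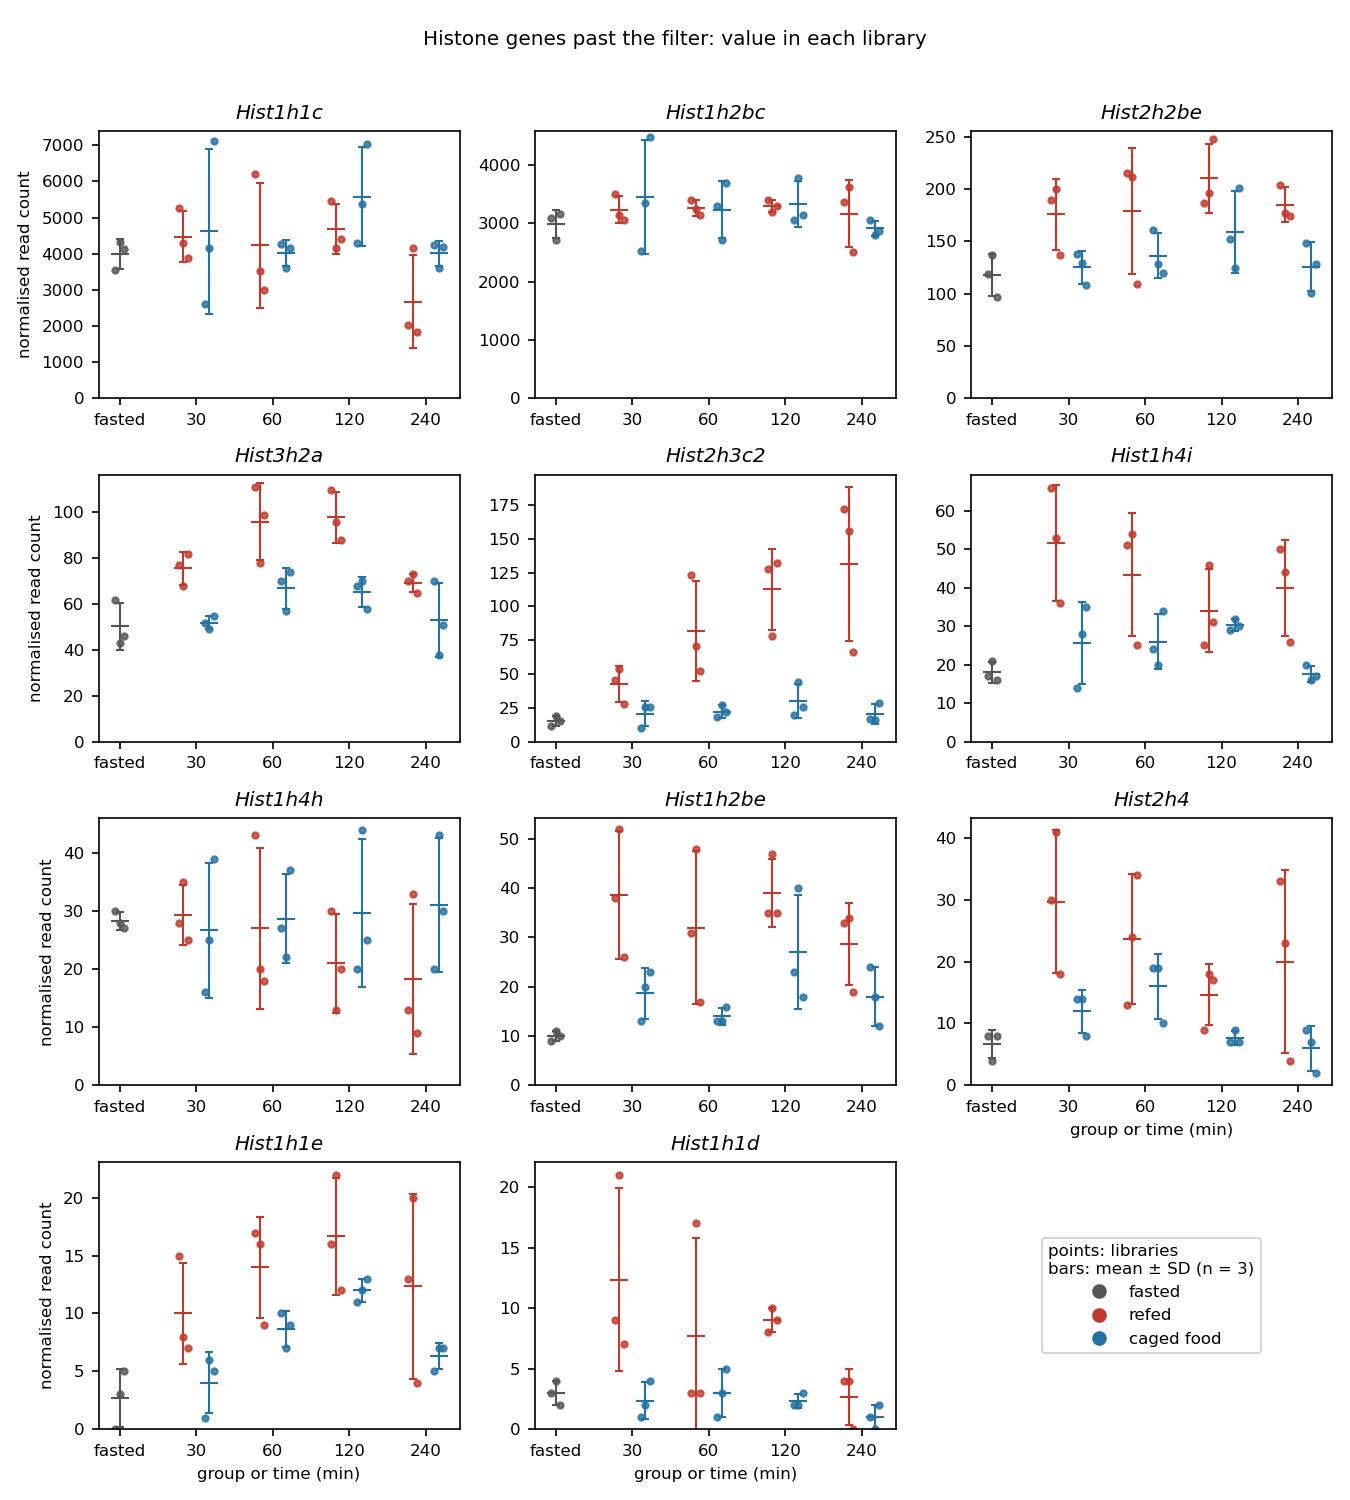
Normalised read count of each of the 11 members (y axes, scales differ between panels) in the fasted group and at each time in min (x axes). Points are libraries and bars are mean ± SD of 3 libraries, drawn down to 0 at most. For Hist2h3c2 the refed libraries of 60 to 240 min lie between 52 and 172, above all fasted and caged food libraries.

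Among the linker histones, which compact the fibre between nucleosomes, the abundant Hist1h1c did not pass the test at any time. It was at 3535, 4333 and 4127 in the fasted livers and at 2022, 4151 and 1829 after 240 min of refeeding (log2 fold change -0.68 ± 0.30 SE, adjusted p = 0.105, limma). Replicates 1 and 3 lay below all fasted libraries and replicate 2 lay among them. Without refed 240 min replicate 2 a fall of Hist1h1c was called (-1.05, adjusted p = 0.0133), but the fit then rests on replicate 1 and on replicate 3, the lowest, whose labels disagree. Without the 2 libraries of conflicting labels the refed mean was 3086.5 and the log2 fold change -0.46 ± 0.33 (adjusted p = 0.368).

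Hist1h1e, a low-level linker histone gene, had 0, 3 and 5 normalised read counts in the fasted livers. It had 17, 16 and 9 at 60 min of refeeding, 16, 22 and 12 at 120 min and 13, 20 and 4 at 240 min. The groups did not overlap at 60 and 120 min and overlapped at 240 min. It rose by 2.33 ± 0.57 (log2, limma, adjusted p = 0.00852) at 60 min, 2.58 ± 0.57 (adjusted p = 0.00325) at 120 min and 1.98 ± 0.57 (adjusted p = 0.0136) at 240 min. The call at 60 min ended without fasted replicate 1, the library at 0 (adjusted p = 0.0764, the highest over 14 alternatives). At 240 min it ended without fasted replicate 1 (0.126), refed 240 min replicate 1 (0.0592) or replicate 2 (0.0861), and its adjusted p ranged from 0.00297 to 0.144 over 14 alternatives. Without the 2 libraries of conflicting labels the rise at 240 min was 2.57 (adjusted p = 0.00378). Hist1h1e lies at chr13:23620629-23622558 (-), and 25.7% of its exon bases overlap Hist1h2be and Gm11398 on the same strand, so reads there could be given to either.

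Hist1h1d had 3, 4 and 2 normalised read counts in the fasted livers and 9, 21 and 7 at 30 min, 3, 17 and 3 at 60 min, 8, 10 and 9 at 120 min and 4, 4 and 0 at 240 min of refeeding. The highest value at 30 and at 60 min was a single library far above the other two. No comparison called it.

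The H2A gene Hist3h2a lies at chr11:58954685-58956830 (+), and Hist3h2bb-ps, whose highest value was 4, starts 173 bases away on the other strand. It had 62, 43 and 46 normalised read counts in the fasted livers, 77, 68 and 82 at 30 min, 111, 78 and 99 at 60 min, 110, 96 and 88 at 120 min and 70, 73 and 65 at 240 min of refeeding. All 12 refed libraries were above the 3 fasted ones. It rose by 0.92 ± 0.19 (log2, limma, adjusted p = 0.00242) at 60 min and by 0.96 ± 0.19 (adjusted p = 0.00146) at 120 min, and both calls held in all 14 alternatives. At 30 and 240 min the log2 fold changes were 0.59 ± 0.19 (adjusted p = 0.159) and 0.47 ± 0.19 (adjusted p = 0.0824). Trim17 overlaps 33.0% of its exon bases on the same strand.

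Of the H2B genes, the abundant Hist1h2bc was at 3089, 2718 and 3158 in the fasted livers and between 2516 and 3617 in the 12 refed ones. Its groups overlapped at 30, 60 and 240 min, and at 120 min all 3 refed libraries lay above the fasted ones. Its log2 fold changes at the 4 times of refeeding were 0.07 to 0.14 with an SE of 0.15, and at 240 min the 95% interval ran from -0.24 to 0.38. This gene, at chr13:23684199-23692908 (+), has a spliced transcript and no stem-loop in the annotation.

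Hist1h2be had 9, 11 and 10 normalised read counts in the fasted livers. It had 38, 52 and 26 at 30 min, 31, 48 and 17 at 60 min, 35, 47 and 35 at 120 min and 33, 34 and 19 at 240 min of refeeding. Every refed library was above every fasted one, and it was the only member called at all 4 times. It rose by 1.80 ± 0.36 (log2, limma, adjusted p = 0.00792), 1.47 ± 0.36 (adjusted p = 0.00811), 1.85 ± 0.36 (adjusted p = 9.83e-04) and 1.39 ± 0.36 (adjusted p = 0.00629). The call at 30 min ended without refed 30 min replicate 2 (adjusted p = 0.0849) and the call at 60 min without refed 60 min replicate 2 (adjusted p = 0.0637), each the highest over 14 alternatives. The rise at 240 min was 1.65 (adjusted p = 0.00385) without the 2 libraries of conflicting labels. The gene spans chr13:23583670-23621124 (-) with 3 transcripts, and 11.2% of its exon bases overlap Hist1h1e and Gm11398.

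Hist2h2be had 119, 137 and 97 normalised read counts in the fasted livers, 187, 196 and 248 at 120 min and 204, 177 and 174 at 240 min of refeeding. The groups did not overlap at these times. It rose by 0.84 ± 0.23 (log2, limma, adjusted p = 0.0160) at 120 min and 0.66 ± 0.23 (adjusted p = 0.0390) at 240 min. Without fasted replicate 3 or refed 120 min replicate 3 the call at 120 min ended (adjusted p = 0.0867 and 0.0852). Without fasted replicate 1 or 3 or any of the 3 refed libraries the call at 240 min ended too (adjusted p from 0.0604 to 0.166). Over 14 alternatives the adjusted p ranged from 0.0115 to 0.0867 at 120 min and from 0.0123 to 0.256 at 240 min. Without the 2 libraries of conflicting labels the call at 240 min ended as well (0.70, adjusted p = 0.0625). It lies at chr3:96221119-96223738 (+), and none of its stretches of 50 bases occurs in another transcript.

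Hist2h3c2, which encodes a replication-dependent H3, had 12, 19 and 15 normalised read counts in the fasted livers (15.3 ± 3.51 SD, n = 3). In refed livers it had 46, 54 and 28 at 30 min, 123, 71 and 52 at 60 min, 128, 78 and 132 at 120 min and 172, 156 and 66 at 240 min. The means were 42.7 ± 13.3, 82.0 ± 36.8, 113 ± 30.1 and 131 ± 57.1 (SD, n = 3), and every refed library was above every fasted one. It rose by 2.28 ± 0.41 (log2, limma, adjusted p = 5.62e-04) at 60 min, 2.78 ± 0.41 (adjusted p = 6.05e-05) at 120 min and 2.92 ± 0.41 (adjusted p = 1.62e-05) at 240 min. At 30 min the log2 fold change was 1.39 ± 0.41 (adjusted p = 0.0981). The calls at 60 and 120 min held in all 14 alternatives. Without the 2 libraries of conflicting labels the rise at 240 min was 3.36 (adjusted p = 9.98e-06), from 172 and 156 in the 2 refed libraries; grouped by the treatment label it was 2.29 (adjusted p = 0.144).

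The gene lies at chr3:96238108-96239127 (-) in the smaller histone cluster. Of its stretches of 50 bases, 63.5% also occur in transcripts of other genes, most often Gm20634, Hist2h3c1 and Gm20628. The share of reads given to Hist2h3c2 therefore depends on how the authors treated reads with several matches. That treatment is not given in the sources used here. Hist2h3c1 was listed at 0 in every library. Gm20632, which starts 266 bases away on the other strand, had a mean of 90.0 in the fasted livers and 72.7, 59.3, 55.7 and 67.3 at the 4 times of refeeding, with no call (adjusted p from 0.0963 to 0.721).

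Of the H4 genes, Hist1h4i had 17, 21 and 16 normalised read counts in the fasted livers. It had 66, 53 and 36 at 30 min, 51, 54 and 25 at 60 min, 25, 46 and 31 at 120 min and 50, 44 and 26 at 240 min of refeeding. Every refed library was above every fasted one. It rose by 1.44 ± 0.34 (log2, limma, adjusted p = 0.0275) at 30 min, 1.16 ± 0.34 (adjusted p = 0.0280) at 60 min and 1.07 ± 0.34 (adjusted p = 0.0240) at 240 min, and at 120 min its log2 fold change was 0.85 ± 0.34 (adjusted p = 0.102). These 3 calls were fragile. At 30 min the call ended without any 1 fasted library or refed 30 min replicate 1 or 2 (adjusted p from 0.0635 to 0.152) and without the 4 libraries standing apart (0.0953). At 60 min it ended without fasted replicate 1 or 3 or refed 60 min replicate 1 or 2 (0.0771 to 0.120), and at 240 min without fasted replicate 1 or 3 or refed 240 min replicate 1 or 2 (0.0665 to 0.120). Over 14 alternatives each the adjusted p reached 0.152, 0.120 and 0.229. At 240 min the rise was 1.34 (adjusted p = 0.0127) without the 2 libraries of conflicting labels. The gene lies at chr13:22040636-22041362 (-), and 28.9% of its stretches of 50 bases occur in transcripts of other genes, most often Hist1h4n, Hist1h4m and Hist1h4b.

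Hist2h4 had 8, 4 and 8 normalised read counts in the fasted livers and 30, 41 and 18 at 30 min, 13, 24 and 34 at 60 min, 9, 18 and 17 at 120 min and 33, 23 and 4 at 240 min of refeeding. The refed libraries were above the fasted ones at 30, 60 and 120 min, and replicate 3 at 240 min, one of the libraries with conflicting labels, lay among them. The lowest adjusted p against fasted was 0.0631, at 60 min (log2 fold change 1.64 ± 0.56). Without the 2 libraries of conflicting labels Hist2h4 was called at 30 min (adjusted p = 0.0198), 60 min (0.0167) and 240 min (0.00618, log2 fold change 1.95). It lies at chr3:96261682-96263311 (-).

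Hist1h4h, at chr13:23531050-23531519 (+), is the member whose annotated transcript ends closest behind the stem-loop, and it was not called at any time. It had 30, 28 and 27 normalised read counts in the fasted livers, 28, 35 and 25 at 30 min and 13, 33 and 9 at 240 min of refeeding, and the groups overlapped at each of the 4 times. Its log2 fold change went from 0.04 ± 0.43 at 30 min to -0.80 ± 0.43 at 240 min (adjusted p = 0.988 and 0.192, limma). Refed 240 min replicate 3, whose labels disagree, was the lowest of its group for Hist1h4h, as for all 11 members. It was also the shallowest of its group, at 28.9 M reads beside 49.0 M and 42.5 M, and the part of depth was not tested. Without replicate 2 a fall of Hist1h4h was called (-1.31, adjusted p = 0.0329), and without the 2 libraries of conflicting labels the log2 fold change was -0.43 ± 0.45 (adjusted p = 0.562). Gm11335, which starts 107 bases away on the other strand, had a mean of 14.0 in the fasted livers and 2.0 at 240 min of refeeding, where it fell (-2.45 ± 0.62, adjusted p = 0.00517). In the caged food 30 min group Hist1h4h had 16, 25 and 39 where Hist1h1c had 2613, 4157 and 7110. Over all 27 libraries the deviations of these genes from their group means had a correlation of 0.74. Over all pairs of members this correlation ran from -0.22 to 0.76, so calls of different members are not independent of each other.

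Caged food at each of the 4 times was set against the fasted group. The fasted livers were not matched in time, so sensing food and time after the fast cannot be told apart here. None of the 11 members was called at 30, 60, 120 or 240 min by limma. Calls were rare among all genes too, at 0.0126%, 0.22%, 0.0377% and 0%. Members whose caged food libraries were all above the fasted ones numbered 1, 3, 4 and 1, beside 6.04%, 7.73%, 8.44% and 6.62% of all genes. The median log2 fold change of the members was 0.17, 0.42, 0.42 and 0.05.

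The member of lowest p was Hist1h2be at 30 min, with 13, 20 and 23 normalised read counts (log2 fold change 0.81 ± 0.36, adjusted p = 0.682). At 120 min Hist1h2be had 23, 40 and 18, all above the fasted libraries (1.27 ± 0.36, adjusted p = 0.263). At the 3 later times the member of lowest p was Hist1h1e, with 10, 7 and 9 at 60 min, 11, 12 and 13 at 120 min and 5, 7 and 7 at 240 min. Its log2 fold changes were 1.73 ± 0.57 (adjusted p = 0.255), 2.17 ± 0.57 (adjusted p = 0.231) and 1.33 ± 0.57 (adjusted p = 0.994). The 60 and 120 min libraries lay above all fasted ones. Hist2h3c2 had 10, 26 and 26 at 30 min, 18, 27 and 22 at 60 min, 20, 44 and 26 at 120 min and 17, 16 and 29 at 240 min of caged food. At 120 min these lay above the fasted libraries, with a 95% interval of the log2 fold change from 0.02 to 1.72.

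Eaten food was set against caged food at the same time, which needs no fasted control. Hist2h3c2 was higher in refed livers at 60 min (log2 difference 1.76 ± 0.41, adjusted p = 0.00620, limma), 120 min (1.91 ± 0.41, adjusted p = 0.00323) and 240 min (2.54 ± 0.41, adjusted p = 6.65e-05). Its 9 refed libraries from 60 to 240 min had 52 or more, and all 15 fasted and caged food libraries had 44 or fewer. At 60 min the call ended without refed 60 min replicate 1 (adjusted p = 0.0518). With the groups of the treatment label, which change no library at 60 or 120 min but the spread all groups share, the adjusted p was 0.104 and 0.0955 at these times, the highest over 14 alternatives each. At 240 min Hist1h4i was also called, at 50, 44 and 26 in refed and 20, 16 and 17 in caged food livers (1.09 ± 0.34, adjusted p = 0.0194). That call ended without refed 240 min replicate 1 or 2 or caged food 240 min replicate 2 or 3 (adjusted p from 0.0514 to 0.101, and from 0.00802 to 0.680 over 14 alternatives).

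In all, 0, 1, 1 and 2 members rose in refed over caged food livers at the 4 times and 0 fell, beside rises in 0.207%, 6.73%, 5.98% and 14.6% and falls in 0.069%, 4.18%, 5.3% and 12.4% of all genes. At 30 min the member of lowest p was Hist1h4i (1.03 ± 0.34, limma, adjusted p = 0.352). Members whose refed libraries were all above the caged food ones numbered 7, 3, 3 and 3, Hist1h1d among those at 30 and 120 min, beside 7.22%, 12.2%, 15.6% and 21.3% of all genes. The comparisons with fasted livers above share those livers, so they are not independent of each other.

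The 240 min comparison depends on the 2 libraries whose labels disagree. With both left out, 4 members rose in refed over caged food livers: Hist2h3c2 (2.87, adjusted p = 1.81e-04), Hist1h4i (1.45, adjusted p = 0.0145), Hist2h4 (2.54, adjusted p = 0.00176) and Hist3h2a (0.69, adjusted p = 0.0303). The share of all genes that rose in that fit is not given here, so the count of 4 describes the members only. The 2 refed libraries left had means of 164 for Hist2h3c2 and 28.0 for Hist2h4, and the 2 caged food libraries 22.5 and 4.5. These 2 caged food libraries were shallow, at 31.2 M and 25.5 M reads, beside 49.0 M and 42.5 M for the 2 refed ones. With 1 read worth 1.42 and 1.69 there, their Hist2h4 values of 7 and 2 rest on very few reads. The part of depth in these calls was not tested. Grouped by the treatment label, no member was called at 240 min against either group, and the log2 difference of Hist2h3c2 was 1.28 (adjusted p = 0.682, the highest over 14 alternatives, of which the lowest was 2.03e-05).

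**Figure D3:**
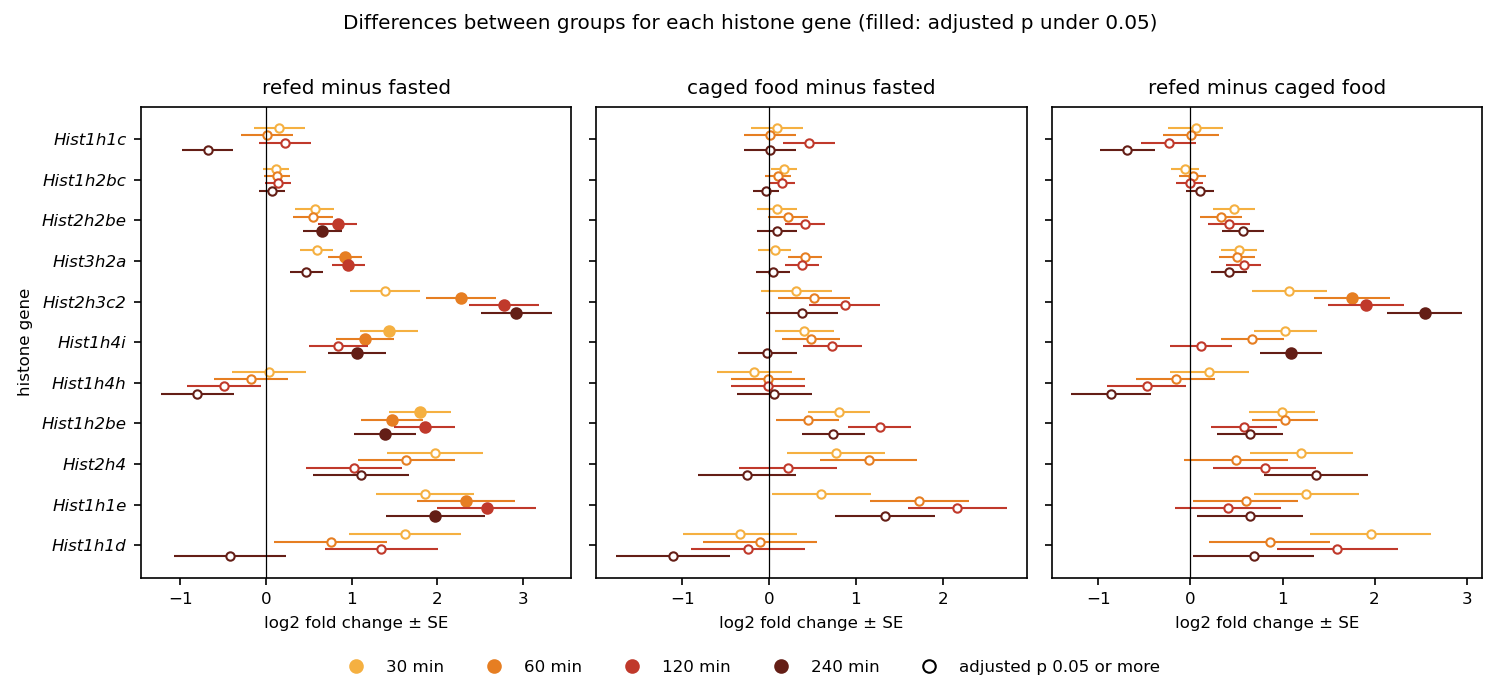
Log2 fold change ± SE of each member (y axis) at 4 times, with refeeding set against the fast (left), caged food set against the fast (middle) and refeeding set against caged food (right) on the x axes. Filled points have an adjusted p under 0.05 in limma with 3 libraries per group. The middle panel has no filled point, and Hist2h3c2 is the only member filled at 3 times in the right panel.

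Over all 9 groups, 8 of the 11 members varied by limma's moderated F test, beside 34.8% of all genes. Hist1h1d is among the 8 and passed the floor only through refed libraries, so its variation is part of its selection. The count of 8 describes the members and supports nothing. Hist2h3c2 had the lowest adjusted p (6.11e-06), followed by Hist3h2a (0.00112) and Hist1h2be (0.00197). Hist1h4i (0.0101), Hist1h1e (0.0117), Hist1h1d (0.0235), Hist2h4 (0.0292) and Hist2h2be (0.0388) also passed. Hist1h1c, Hist1h2bc and Hist1h4h did not (adjusted p = 0.162, 0.911 and 0.628). Without the 4 libraries standing apart 5 members passed, and Hist2h2be (0.0540), Hist2h4 (0.104) and Hist1h1d (0.0679) did not. The same 3 were lost without refed 30 min replicate 2 (0.0536, 0.0702 and 0.0655). Hist2h4 was also lost without refed 30 min replicate 1 (0.0615), fasted replicate 2 (0.0527) or caged food 240 min replicate 3 (0.0551). For Hist2h2be the call ended in 17 of 34 alternatives, and Hist1h4i lost its call with the groups of the treatment label (0.0755). An F test of the interaction asked whether the gap between eaten and caged food changed over time. No member passed it, beside 9.97% of all genes. The lowest adjusted p was that of Hist2h3c2, at 0.338.

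Promoters are shown for 3 members that rose in refed livers and belong to different classes: the 200 bases before the start, from RefSeq on GRCm38.p6, 5′ to 3′ on the strand of the gene. RefSeq promoters were matched for 8 members, with 9 promoters. Capitals mark the motifs searched on both strands. They were the TATA box, spelled TATAAA, the box bound by NF-Y, spelled CCAAT, and the octamer bound by Oct-1, spelled ATTTGCAT. The GC box bound by Sp1, spelled GGGCGG, and the core of the cAMP response element, spelled TGACGT, were searched too. None of these motifs contains another.
Hist3h2a: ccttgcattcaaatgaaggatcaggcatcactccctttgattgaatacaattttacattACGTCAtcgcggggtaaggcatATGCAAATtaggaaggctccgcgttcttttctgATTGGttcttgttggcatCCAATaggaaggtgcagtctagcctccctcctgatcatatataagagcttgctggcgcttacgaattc
Hist2h3c2: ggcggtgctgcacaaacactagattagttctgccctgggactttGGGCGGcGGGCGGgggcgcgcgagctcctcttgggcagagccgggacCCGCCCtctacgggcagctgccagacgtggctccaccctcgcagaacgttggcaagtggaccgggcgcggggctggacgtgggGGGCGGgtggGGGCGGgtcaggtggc
Hist1h4i: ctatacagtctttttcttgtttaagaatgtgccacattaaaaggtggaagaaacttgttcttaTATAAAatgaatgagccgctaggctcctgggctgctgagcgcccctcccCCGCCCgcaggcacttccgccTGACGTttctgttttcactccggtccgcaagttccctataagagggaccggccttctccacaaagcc
They lie at chr11:58954485-58954684 (+), chr3:96239128-96239327 (-) and chr13:22041363-22041562 (-). The window of Hist2h3c2 held 5 GC boxes and none of the other 4 motifs. That of Hist3h2a held 2 NF-Y boxes, 1 octamer and 1 cAMP element core, and that of Hist1h4i 1 TATA box, 1 GC box and 1 cAMP element core. Over the 9 member promoters, the NF-Y box was in 6, the GC box in 4, the TATA box in 3, the cAMP element core in 3 and the octamer in 2. Among 32851 promoters of the same length these motifs were in 29.3%, 31.0%, 9.96%, 5.85% and 1.38%. A match describes the letters and shows no binding.

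The other genes of the histone pathway were taken from 7 lists. Their counts stand beside rises in 1.31%, 7.26%, 7.95% and 12.9% of all genes at 30, 60, 120 and 240 min of refeeding. The shares of all genes that fell were 0.326%, 3.75%, 6.13% and 11.4%. Of 11 genes tested from the list named replication-independent histone variants, 0, 1, 1 and 1 rose and 0, 0, 1 and 3 fell at 30, 60, 120 and 240 min of refeeding. The one that rose was H2afx, whose product H2A.X is phosphorylated at DNA breaks: its mean was 341 in the fasted livers and 589, 801 and 712 at 60, 120 and 240 min (log2 0.73 ± 0.20, 1.23 ± 0.20 and 1.04 ± 0.20, limma, adjusted p = 0.0211, 2.13e-04 and 6.27e-04). The call at 60 min ended without fasted replicate 2 or 3 or refed 60 min replicate 1 (adjusted p from 0.0701 to 0.161). The stem-loop search covered only genes of the name pattern, so the 3′ end of H2afx was not searched. Whether it belongs with the members or apart from them was not tested. H2afv, which encodes a form of H2A.Z, fell at 240 min (-0.71 ± 0.12, adjusted p = 1.26e-04). H1f0, the linker histone of differentiated cells, fell at 240 min (-0.34 ± 0.09, adjusted p = 0.00916).

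Of 21 genes of histone transcription and mRNA processing, 1, 5, 6 and 6 rose and 0, 0, 2 and 1 fell at the 4 times. Ncbp2, a subunit of the cap-binding complex, rose at 240 min (0.69 ± 0.11, adjusted p = 4.26e-05, limma), as did Cpsf2, a subunit of the cleavage complex (0.53 ± 0.08, adjusted p = 5.22e-05), and Nfyb, a subunit of NF-Y (0.55 ± 0.09, adjusted p = 7.05e-05). Slbp and Npat are named for their roles, after their values were seen. Slbp, the stem-loop binding protein, had a log2 fold change of -0.25 ± 0.09 at 240 min (adjusted p = 0.0511), and Npat, the histone gene coactivator, -0.28 ± 0.14 (adjusted p = 0.171). Of 12 genes of histone mRNA decay, 0, 2, 2 and 5 rose and 0, 0, 1 and 1 fell; Tut1, a terminal uridylyltransferase, rose at 60 min (0.73 ± 0.11, adjusted p = 6.25e-05). Of 22 histone chaperone genes, 1, 3, 1 and 4 rose and 0, 0, 0 and 2 fell. Chaf1b, a subunit of the assembly factor CAF-1, fell at 240 min (-1.16 ± 0.27, adjusted p = 0.00278). Of 12 genes of nuclear poly(A) tail addition and binding, 0, 3, 1 and 3 rose and 0, 1, 1 and 2 fell, and the poly(A) polymerase gene Papola rose at 240 min (0.42 ± 0.07, adjusted p = 1.49e-04). When caged food was set against the fast, none of these lists had a call. At 240 min the rises in histone processing stayed at 6 without any 1 library, those in decay ranged from 4 to 5 and those in chaperones from 2 to 5.

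Replication-dependent histone genes are known to be induced together with the genes of DNA replication. Of 30 genes of DNA replication and S phase, 0, 0, 1 and 2 rose and 0, 1, 2 and 2 fell at 30, 60, 120 and 240 min of refeeding, with a median log2 fold change of 0.05, -0.10, -0.06 and -0.01. Cdt1, which licenses replication origins, fell at 60, 120 and 240 min (-0.98 ± 0.22, -1.01 ± 0.22 and -1.22 ± 0.22, limma, adjusted p = 0.00412, 0.00285 and 2.67e-04). Rrm2, a subunit of ribonucleotide reductase, fell at 120 min (-1.11 ± 0.22, adjusted p = 0.00149), and the transcription factor gene E2f2 rose at 240 min (1.55 ± 0.31, adjusted p = 7.62e-04). The summed value of the 30 genes was 6594 to 6799 in the fasted livers, 6665 to 6953 at 30 min and 5245 to 6458 at 240 min of refeeding.

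Of 24 mitosis genes tested, 10 rose at 30 min of refeeding and 0 fell, and at 60, 120 and 240 min 0 rose and 1, 0 and 1 fell. Ckap2, a spindle protein gene, rose by 3.17 ± 0.63 (limma, adjusted p = 0.00771) and the kinesin gene Kif20a by 1.75 ± 0.37 (adjusted p = 0.0127) at 30 min. The summed value of all 25 mitosis genes in the table was 700, 796 and 606 in the fasted livers, 3011, 2222 and 1011 at 30 min of refeeding and 1193, 897 and 1582 at 30 min of caged food. Replicate 1 at 30 min of refeeding also stood out for exocrine pancreas markers, with a sum of 5727 over 10 genes, beside 385 and 358 in the others. The count of 10 fell to 0 without refed 30 min replicate 1, without replicate 2 and without fasted replicate 3, and to 0 without the 4 libraries standing apart. The part of these genes and libraries in the members' values at 30 min was not tested.

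**Figure D4:**
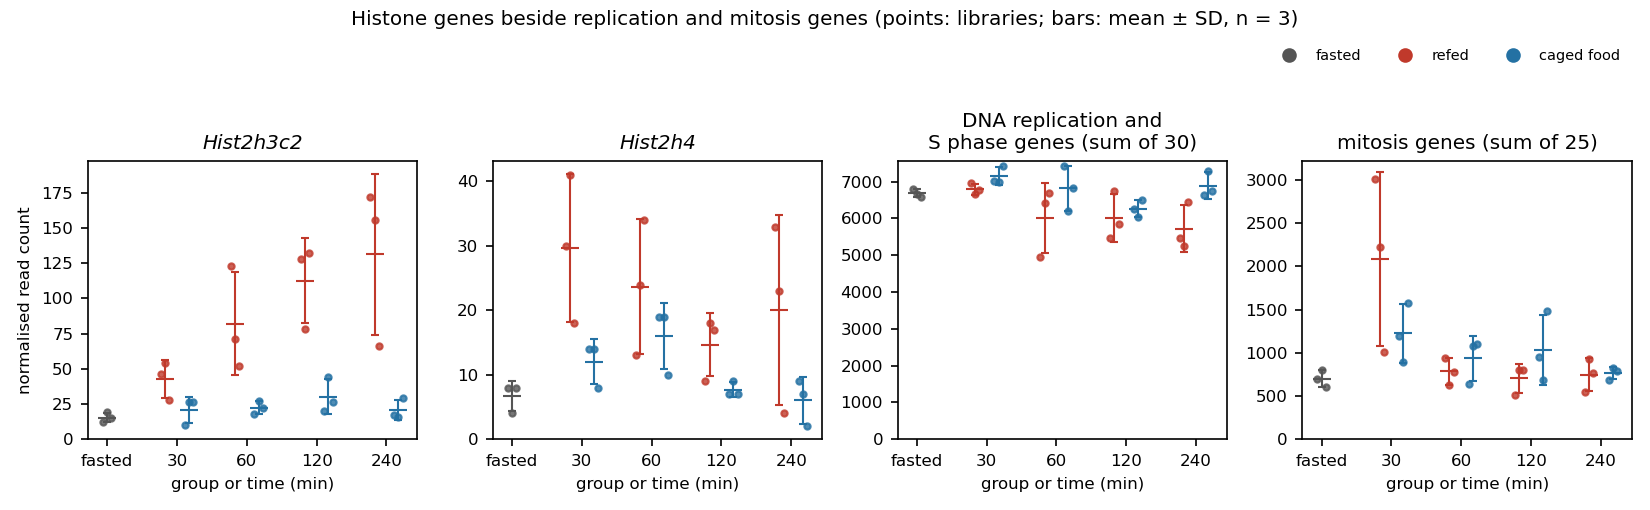
Normalised read count of Hist2h3c2 and Hist2h4 and the sum over 30 replication genes and over 25 mitosis genes (y axes, scales differ) by group and time in min (x axes). Points are libraries and bars mean ± SD of 3. Hist2h3c2 is highest in refed livers at 240 min, where the replication genes sum to 5245 to 6458, and the mitosis genes reach 3011 only at 30 min.

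Markers of other cells that could carry histone transcripts were summed as well. They came from lists of genes that define each cell type. The 9 markers of T, NK and B lymphocytes summed to 551 to 805 in the fasted livers and to 558 to 749, 496 to 795, 554 to 987 and 771 to 858 at 30, 60, 120 and 240 min of refeeding. The 8 markers of neutrophils and monocytes summed to 1896 to 2508 in the fasted livers and to 1978 to 2900, 1951 to 3080, 2263 to 3430 and 2454 to 2803 at these times. Of these 8, up to 2 were at 0 in a refed group. The 8 Kupffer cell markers summed to 13411 to 16484 in the fasted livers and to 15496 to 20158, 12234 to 15837, 13208 to 21322 and 15415 to 16963. The 6 cholangiocyte markers summed to 1422 to 1583 in the fasted livers and to 1307 to 1588, 1227 to 1849, 1472 to 1857 and 1516 to 1602 at the 4 times. The 7 erythroid markers summed to 6098 to 9066 in the fasted livers and to 8414 to 10853, 6429 to 7632, 4906 to 7455 and 5783 to 7978. All these ranges overlapped between refed and fasted livers at each time. The 8 stellate cell markers summed to 23979 to 25872 in the fasted livers and to less, without overlap, at 30 min (18234 to 23720), 120 min (18311 to 22840) and 240 min (16792 to 21274), and to 18085 to 25117 at 60 min. The 8 sinusoidal endothelial markers summed to 25686 to 29807 in the fasted livers and to less, without overlap, at 240 min (22957 to 23861). No defining marker of the lymphocyte, Kupffer, stellate or endothelial lists was at 0 in a whole fasted or refed group. Their part in the members' values was not tested.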

How the data were processed

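RNA of 27 mouse livers was sequenced after a stranded mRNA library preparation with poly(A) selection, per the labels' protocols. The authors deposited 1 table of values per gene, a score here: scaled read counts that were then rounded, as the spacing of low values shows. Reads were aligned with STAR 2.4.0a and counted with featureCounts 1.4.5-p1 on mm10, per the submitters' processing notes; the scaling method, gene annotation, strand setting and treatment of reads with several matches are not given in the sources used here. Since values are not counts, log2(value + 1) was fitted with limma 3.58.1 (R 4.3.3) with a variance trend over all 9 groups, for genes at 10 or more in at least 3 libraries, and p-values were adjusted by the Benjamini-Hochberg method over all genes tested, with a threshold of 0.05. Fold changes on this scale understate the change of low genes. The p-values set a difference between groups against the spread between libraries. In the main fit that spread was estimated over all 9 groups and moderated by the trend over genes. The 12 comparisons between groups, the F test over groups and the interaction were recomputed with other normalization, pseudocount (5), filter, grouping and replicate block, and without single libraries. Recomputing the list counts under these settings was chosen after seeing the data.

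Named genes were all members described by class, the member of lowest p in each comparison and up to 4 genes of lowest p per list and comparison. The members and lists were chosen with earlier results of these data known. The fit was tested on simulated data made from the fasted and refed 120 min libraries (15716 genes) and recovered 56.7% of genes changed 1.5-fold, 76.1% changed 2-fold and 97.0% changed 4-fold. It also made 9 false calls. Recovery at low values, where most called members lie, is not given here. Sequences were read from GENCODE M21 and RefSeq tables on GRCm38 with Python 3.11.15.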

Additional observations from a re-analysis of the deposited data

How the results depend on the processing

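All 21 calls of single members kept their direction under every alternative run, and 6 kept their call in all 14 alternatives of their comparison; where a call ended the cause was not tested, apart from the fewer libraries of some settings. The count of members that rose against fasted at 30 min went from 2 to 1 under quantile normalization, with no filter on low values, with the groups of the treatment label and without the 4 libraries standing apart. The count at 60 min went from 5 to 2 with only the groups compared in the fit. The count at 240 min went from 5 to 3 with no filter and to 0 with the groups of the treatment label. Against caged food, that regrouping took the counts of 1, 1 and 2 at 60, 120 and 240 min to 0, the fit without the 2 libraries of conflicting labels gave 2 at 120 min and 4 at 240 min, and the fit of only the groups compared gave 2 at 120 min. The F test over the groups called 5 in place of 8 without the 4 libraries standing apart. Leaving out 1 library at a time gave 0 to 2, 3 to 6, 4 to 5 and 2 to 5 members risen against fasted at the 4 times, and 0 to 2, 1 and 1 to 3 against caged food at 60, 120 and 240 min. It gave 0 to 2 members fallen at 240 min against fasted and 0 to 2 against caged food, and 5 to 8 by the F test. The shares of all genes called under these settings are not given here, so the counts describe the members only.

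With the replicate number as a block, 2 members in place of 1 rose in refed over caged food livers at 60 min, Hist1h2be (log2 1.03, adjusted p = 0.0403) being added, and 2 at 120 min, Hist3h2a (0.58, adjusted p = 0.0365) being added. The numbers were not treated as pairs, since over 108 pairs with the same number the mean correlation of deviations was -0.00944 and 8 of 27 libraries correlated best with their own number. A value near 10 rests on about 10 reads, and the 4 members of lowest level per kb (Hist1h1d, Hist1h1e, Hist1h2be and Hist2h4) are limited most by depth.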
